A study of Mus musculus with 18 samples.

Results

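*Iqcg*, *Rpl35a*, *Lrch3*, and *Fyttd1* are 4 protein-coding neighbors on mouse chromosome 16, taken from the 78239 genes counted in the kidneys of outbred CD-1 mice aged 6 wk. They were named as a list, and the pair *Iqcg* and *Rpl35a* was selected on its measured values, because both differed between LP and NP females. Values in that contrast are therefore a description with no test, and the male mice, which it did not include, carry the tests. The members were chosen with earlier results of these data known, so the male tests may not be fully independent of the choice. Dams ate chow with 8% (LP) or 18% (NP) protein, and after weaning every pup, labelled WT, ate the NP diet and received injections of cationic ferritin. RNA came from a piece of the left kidney, with 1 library for each mouse: 5 each from LP males, LP females, and NP males, and 3 from NP females. Male kidneys were collected 90 min and female kidneys 24 h after the last injection, so sex and collection time cannot be told apart. The labels tie no mouse to a litter, so p-values measure the spread between these mice, some of which may be littermates.

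The 4 genes do unrelated work. *Iqcg* encodes a calmodulin-binding subunit of the nexin-dynein regulatory complex, the link between neighboring microtubule doublets in motile cilia and sperm flagella. Kidney tubule cells carry primary cilia, which do not beat and lack that link. *Rpl35a* encodes a protein of the large ribosomal subunit, needed in every cell and mutated in some families with Diamond-Blackfan anemia. *Lrch3* encodes a protein with leucine-rich repeats and a calponin homology domain and works at the actin cytoskeleton. *Fyttd1* encodes an adaptor that helps load messenger RNA onto the nuclear export receptor *Nxf1*. Genes packed this closely can share transcribed bases on opposite strands, and a library made without strand information cannot say which gene such a read came from.

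Gene positions below follow GENCODE vM39 (GRCm39), while the authors counted on vM36, and the version suffixes of all 4 gene records differ between the sets, so the outer exon ends may differ. *Fyttd1* (ENSMUSG00000022800.15) lies on the plus strand at chr16:32697870-32729345, and *Lrch3* (ENSMUSG00000022801.14) follows on the same strand at chr16:32734457-32836017. *Iqcg* (ENSMUSG00000035578.17) runs the other way, on the minus strand at chr16:32833053-32876799. *Rpl35a* (ENSMUSG00000060636.15) starts at its far side on the plus strand, at chr16:32876630-32880559. *Iqcg* thus meets *Rpl35a* head to head, where 170 exonic bases overlap, and meets *Lrch3* tail to tail, where 2965 exonic bases overlap. At the far end, *Fyttd1* overlaps the gene *Rubcn* by 184 exonic bases.

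**Figure D1:**
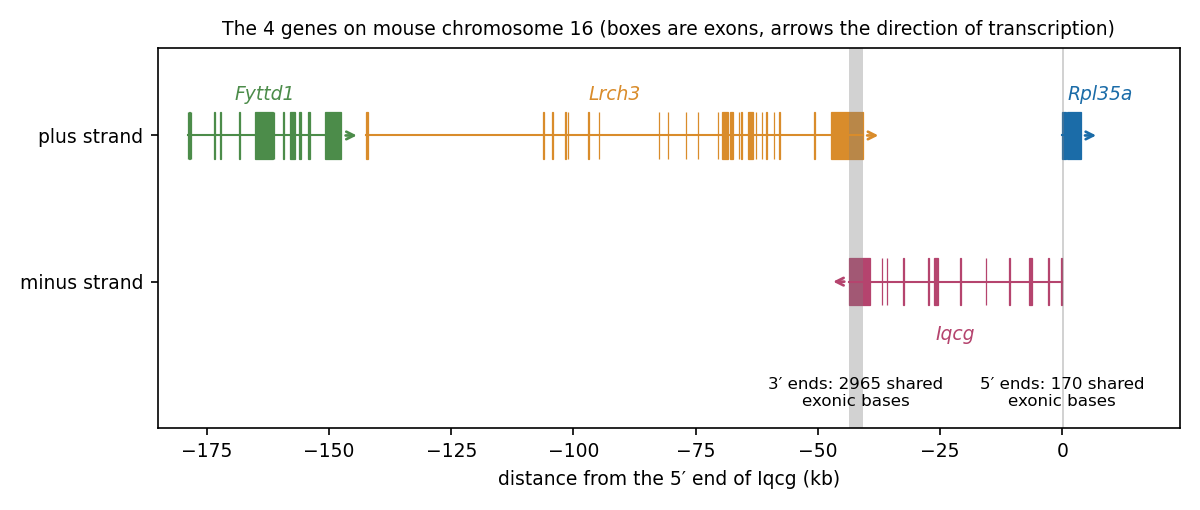
Exons of the 4 genes by strand, with distance in kb from the 5′ end of *Iqcg* on the x axis, and gray bands marking the exonic bases that *Iqcg* shares with *Lrch3* and with *Rpl35a*. The overlap with *Lrch3* (2965 bases) is much longer than that with *Rpl35a* (170 bases).

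The stretch between *Iqcg* and *Rpl35a* is printed because it holds the starts of both genes. RefSeq gave a window of 250 bases before to 50 bases after each transcript start for all 4 genes (table build GRCm38.p6), and each window was found once, base for base, on chromosome 16 of GRCm39. In these RefSeq models the *Iqcg* and *Rpl35a* transcripts point away from each other, their starts lie 267 bases apart, and 234 bases belong to both windows. The *Iqcg* window lies at chr16:32876507-32876806 on the minus strand and the first of 3 *Rpl35a* windows at chr16:32876573-32876872 on the plus strand (GRCm39). Both are written 5′ to 3′ on the strand of their gene, and capitals mark GTTGCC or its reverse complement.
Iqcg: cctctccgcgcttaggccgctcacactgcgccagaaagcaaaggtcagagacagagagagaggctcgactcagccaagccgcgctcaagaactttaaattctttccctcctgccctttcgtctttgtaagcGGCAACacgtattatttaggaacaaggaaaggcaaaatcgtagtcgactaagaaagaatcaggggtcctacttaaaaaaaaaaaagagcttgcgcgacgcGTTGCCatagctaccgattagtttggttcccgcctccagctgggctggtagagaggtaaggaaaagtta
Rpl35a: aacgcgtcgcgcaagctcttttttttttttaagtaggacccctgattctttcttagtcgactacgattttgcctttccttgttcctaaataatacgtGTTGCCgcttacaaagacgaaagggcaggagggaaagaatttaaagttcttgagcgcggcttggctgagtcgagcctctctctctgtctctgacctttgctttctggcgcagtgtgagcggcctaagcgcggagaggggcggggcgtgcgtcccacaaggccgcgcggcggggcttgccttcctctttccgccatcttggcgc
GTTGCC is the core of the X-box, the motif read by RFX factors, which are known for switching on ciliary genes. It began 19 bases before the *Iqcg* start on the *Iqcg* strand and again, on the other strand, 114 to 119 bases before it. The latter copy is the one in the *Rpl35a* window. On both strands, GTTGCC occurred in 12.5% of 32851 RefSeq windows of this length. The other motifs searched, also on both strands, were TATAAA (13.6% of windows), CCAAT (37.4%), and CCGGAAG (8.86%). Among the 4 members' windows, CCAAT was found in that of *Fyttd1*, and TATAAA and CCGGAAG in none. A match here is a string of letters and no measured binding.

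Libraries held 14050486 to 23562411 reads counted on genes, and 12665 genes reached 10 counts in each library, all 4 members among them. The 9 kidney markers, from the proximal tubule gene *Lrp2* to the podocyte gene *Nphs1*, were detected in every library and summed to 9735 to 16210 CPM (counts scaled to library size, with TMM normalization over all 18 libraries). In average-linkage clustering on 1 minus Pearson's r of log2(CPM + 1), 3 libraries stood apart from the other 15, those of LP female 1, LP female 2, and NP female 3. Female diet differences of the 4 genes, the shared reads, and the gene lists are given with and without them. In bulk RNA, fewer cells of a type and less RNA per cell cannot be told apart.

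The reads that *Iqcg* shares were examined first, because they decide what its count means. STAR reports for each gene a count that ignores strand, which drops any read lying on genes of both strands, and a separate count for each strand. Since the library was non-directional, the members' reads fell almost evenly on the strand columns, with 49.5% to 50.8% of them in the first. The strand counts together minus the unstranded count therefore give the reads dropped as shared.

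*Rpl35a* lost nearly nothing in this way. Its shared reads numbered 0 in 16 libraries and 1 in the other 2, against 22078 reads counted on it over all libraries. *Fyttd1* lost at most 3 reads in a library. So although the annotation overlaps *Iqcg* and *Rpl35a* by 170 bases, almost no read was counted as lying on both.

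*Iqcg* lost more reads than it kept. In LP males 1 to 5, 108, 113, 489, 145, and 132 reads were counted on *Iqcg* alone, and 369, 243, 396, 463, and 318 more were shared. In NP males 1 to 5, 139, 110, 276, 327, and 459 reads were its own and 295, 360, 361, 382, and 384 were shared. LP females 1 to 5 had 204, 166, 103, 89, and 185 own and 409, 318, 424, 361, and 615 shared reads. In the 3 NP females, 358, 269, and 397 reads were its own and 467, 561, and 391 were shared. Shared reads outnumbered own reads in 15 of 18 libraries, the exceptions being LP male 3, NP male 5, and NP female 3.

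The lost reads lay with *Lrch3*. Over all libraries *Iqcg* lost 7117 reads and *Lrch3* lost 7444, and the noncoding RNA gene *Gm17106*, which lies opposite a short stretch of *Lrch3*, lost 326. The reads lost by *Lrch3* equalled the sum of the other 2 to the read in 16 of 18 libraries, and were off by at most 3 reads in the others. Per kb of exonic sequence, the stretch shared by *Iqcg* and *Lrch3* held a median of 129 reads per library, the rest of *Iqcg* 45.6, and the rest of *Lrch3* 12.2. The shared stretch was denser than the rest of *Iqcg* in 18 of 18 libraries. Exons of all transcript models of vM39 were pooled for these lengths, whether or not kidney uses them. No strand is known for the shared reads. The unstranded counts used below assign them to neither gene, so the count of each gene describes the part of it outside the tail. Where both strand columns are added, the same reads count in full for both genes.

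**Figure D2:**
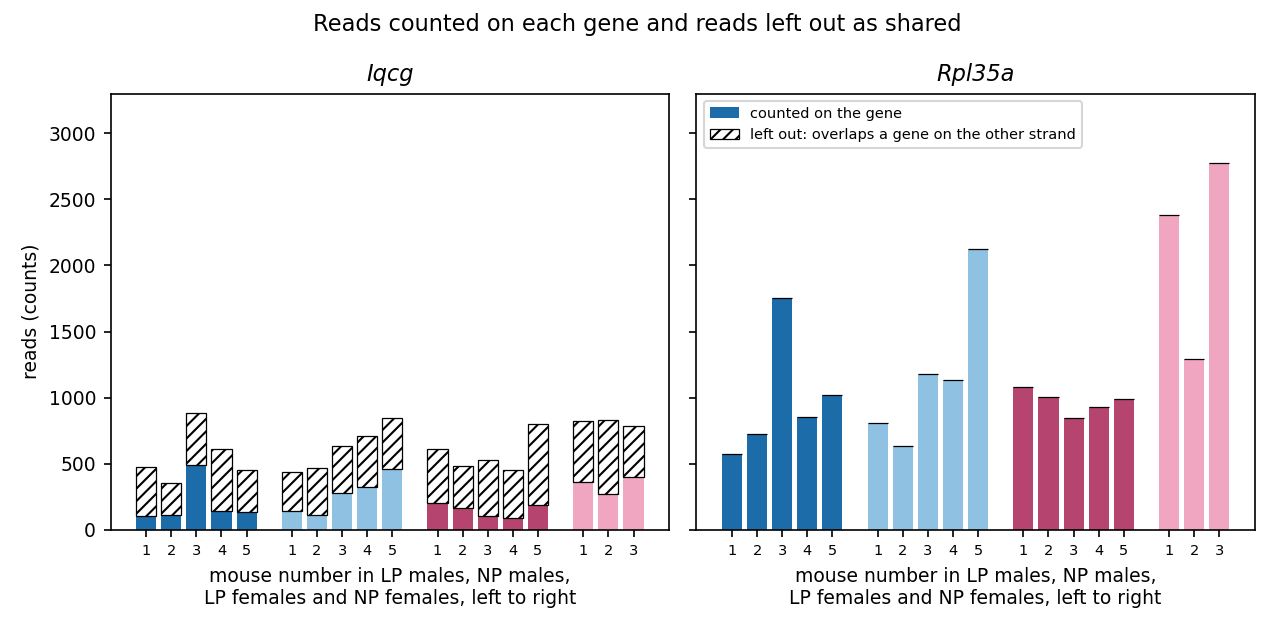
Reads per library on the y axis for *Iqcg* (left) and *Rpl35a* (right), with 1 bar per mouse, colored by group. Filled bars are reads counted on the gene and hatched bars are reads left out because they also lie on a gene of the other strand; hatching covers 44.7% to 80.5% of the *Iqcg* reads and is absent from view for *Rpl35a*.

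*Iqcg*, the ciliary gene, was low in 11 libraries and lay above a clear gap in the remaining 7. In LP males 1 to 5 it stood at 7.92, 8.37, 26.7, 6.53, and 7.30 CPM (11.4 ± 8.60, mean ± SD, n = 5). NP males 1 to 5 had 9.71, 6.66, 17.8, 22.2, and 26.7 CPM (16.6 ± 8.36, n = 5). The ranges of the male groups overlapped almost entirely, since LP male 3 was as high as the highest NP male.

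Among females, LP mice 1 to 5 had 9.40, 8.24, 5.26, 5.37, and 7.46 CPM of *Iqcg* (7.15 ± 1.81, n = 5). NP females had 21.4, 14.8, and 28.1 CPM (21.4 ± 6.65, n = 3). No LP female reached the lowest NP female. This held for 1.23% of the 13510 genes tested in females, and the pair was selected on this contrast, so nothing is read from it.

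*Rpl35a*, the ribosomal gene, was high in the same mice, though the order within the high and the low mice differed. In LP males 1 to 5 it stood at 42.0, 53.8, 95.6, 38.5, and 56.2 CPM (57.2 ± 22.7, n = 5). NP males 1 to 5 had 56.5, 38.3, 75.7, 76.6, and 123 CPM (74.1 ± 31.7, n = 5). As for *Iqcg*, LP male 3 was above the other LP males and NP males 1 and 2 were below the other NP males, and the groups overlapped.

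LP females 1 to 5 had 49.8, 49.8, 43.0, 55.9, and 40.1 CPM of *Rpl35a* (47.7 ± 6.25, n = 5). The 3 NP females had 142, 71.0, and 196 CPM (136 ± 62.9, n = 3). These groups did not overlap either, with every LP below every NP female, as for 1.23% of the 13510 genes tested. The pair was selected on this contrast. In CPM, the NP females were spread over a wider range than any other group. As log2 deviations from the mean of the gene, NP males (-0.75 to 0.94) were spread more widely than NP females (0.15 to 1.61).

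*Lrch3*, the cytoskeletal gene, had the fewest own reads per kb of the 4 genes. LP males 1 to 5 had 6.45, 4.97, 4.97, 8.33, and 5.64 CPM, and NP males 1 to 5 had 6.08, 7.08, 7.40, 8.88, and 3.54 CPM. LP females 1 to 5 had 5.94, 7.05, 10.7, 4.77, and 10.7 CPM, and NP females 4.48, 11.02, and 3.54 CPM. The groups overlapped in both sexes, and the differences between diet means were smaller than the SDs within groups.

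*Fyttd1*, the export adaptor, was the steadiest of the 4. It ranged from 43.2 to 50.3 CPM in LP males (46.6 ± 3.06, n = 5) and from 43.3 to 57.7 CPM in NP males (50.2 ± 5.50, n = 5). In females it ranged from 37.6 to 51.7 CPM with LP (44.1 ± 5.91, n = 5) and from 36.4 to 48.0 CPM with NP (40.8 ± 6.34, n = 3). Its highest library was 1.59-fold above its lowest, against 5.35-fold for *Iqcg*, 5.13-fold for *Rpl35a*, and 3.11-fold for *Lrch3*.

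**Figure D3:**
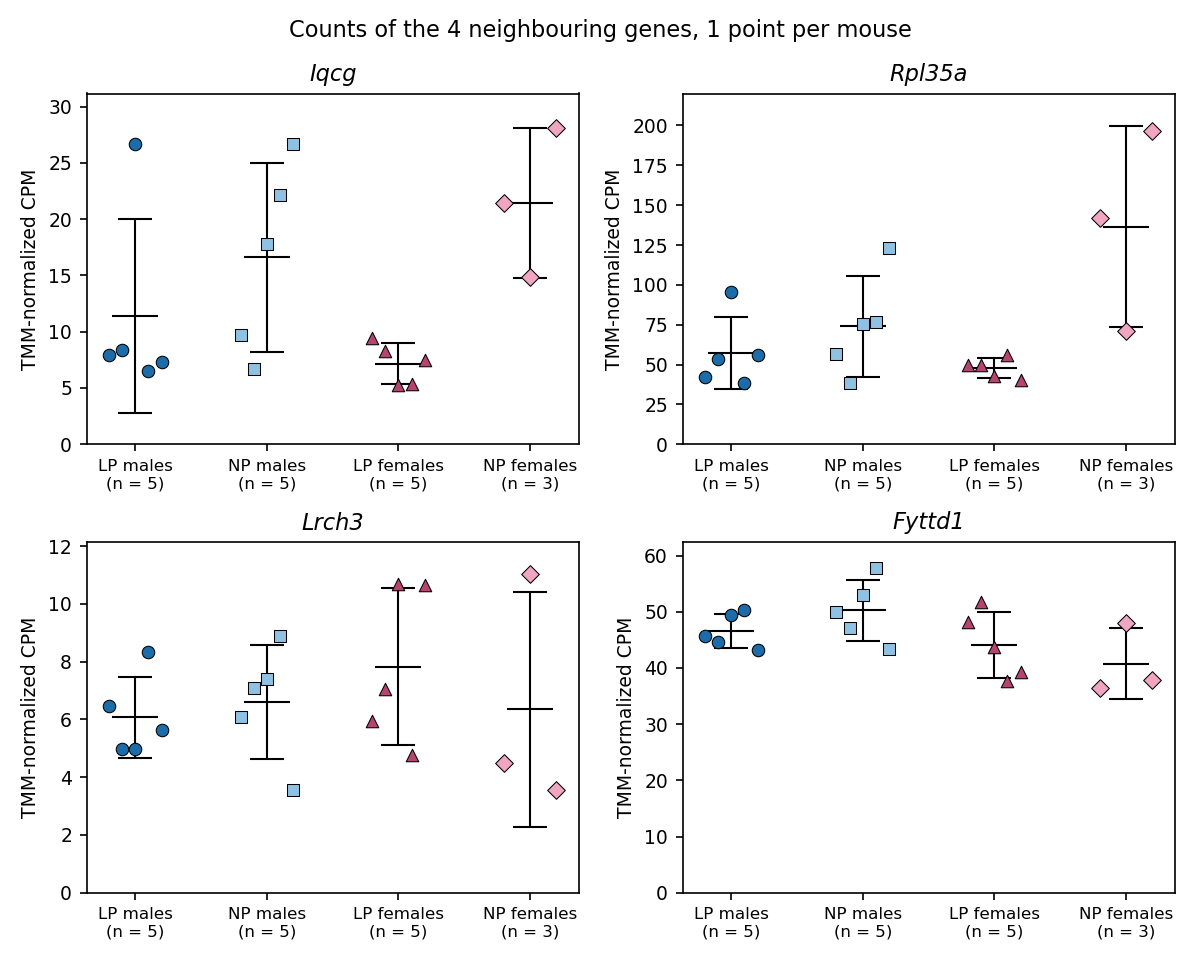
TMM-normalized CPM of the 4 genes on the y axes, with 1 point per mouse in the 4 groups and horizontal bars giving mean ± SD. *Iqcg* and *Rpl35a* separate LP from NP females but overlap between LP and NP males, and *Lrch3* and *Fyttd1* overlap throughout.

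The question for males was whether maternal diet shifted any of the 4 genes. No member was called. With edgeR's quasi-likelihood test, 5 of 13181 genes passed an adjusted p under 0.05 with at least a 1.5-fold change (0.0379%), and 506 had an unadjusted p under 0.05. DESeq2's Wald test called 4 genes higher and 11 lower in LP males, with no member among them. The LP minus NP log2 fold change in males was -0.54 (SE 0.45) for *Iqcg*, -0.37 (SE 0.30) for *Rpl35a*, -0.11 (SE 0.24) for *Lrch3*, and -0.11 (SE 0.09) for *Fyttd1*, each with an edgeR adjusted p of 0.9996. Non-overlapping male groups were found for 0.668% of the genes tested and for none of the 4.

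Single mice moved the male value for the pair in either direction. Without LP male 3, the *Iqcg* fold change was -1.15 (SE 0.35, edgeR adjusted p = 0.67) and that of *Rpl35a* was -0.64 (SE 0.27, edgeR adjusted p = 0.75). Without NP male 5, *Iqcg* was at -0.30 (SE 0.46) and *Rpl35a* at -0.11 (SE 0.27), both with an edgeR adjusted p of 0.9985. Neither gene was called either way.

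The shared reads of *Iqcg* and *Lrch3* differed little between male groups. Scaled like the gene counts, they averaged 21.0 ± 3.79 CPM in LP and 22.8 ± 1.98 CPM in NP males (SD, n = 5 each), a log2 difference of -0.13 (exact two-sided permutation test, p = 0.33, smallest possible 0.0079). Without LP male 1 the difference was -0.22 on that scale (exact permutation p = 0.063). The sum of *Iqcg*, *Rpl35a*, and the shared reads had medians of 80.2 CPM in LP and 117 CPM in NP males, and its log2 difference was -0.32 (exact two-sided permutation test, p = 0.34). This sum was planned before the shared reads were seen to lie with *Lrch3* and not with *Rpl35a*.

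In females, the contrast that selected the pair, edgeR called 0 of 13510 genes (0%), with 564 at an unadjusted p under 0.05, and DESeq2 called 1 gene higher and 8 lower in LP. *Iqcg* and *Rpl35a* were among those 8, but this contrast selected them, so nothing is read from that. The LP minus NP log2 fold changes were -1.57 (SE 0.26) for *Iqcg* and -1.50 (SE 0.26) for *Rpl35a*, so that LP females had 2.97-fold and 2.83-fold less. *Lrch3* was at 0.30 (SE 0.44) and *Fyttd1* at 0.11 (SE 0.16), both within 1 standard error of 0.

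How the tail was counted moved the female value of *Iqcg*. With both strand columns added, which puts the shared reads back, the *Iqcg* difference was -0.86 (SE 0.14) and that of *Rpl35a* stayed at -1.52 (SE 0.27). The shared reads themselves lay between 15.8 and 24.8 CPM in LP females and between 27.7 and 30.9 CPM in NP females, without overlap. Every LP female lay below every NP female for 1.23% of the 13510 genes tested. This contrast selected the pair, so nothing is read from it. With the 3 libraries that stood apart left out, the shared reads lay between 21.6 and 24.8 CPM (n = 3) and between 27.9 and 30.9 CPM (n = 2). *Lrch3* turned from 0.30 to -0.29 (SE 0.20) when the same reads were put back.

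The libraries that stood apart were left out together and singly. With LP females 1 and 2 and NP female 3 left out together, the female *Iqcg* difference stayed at -1.57 (SE 0.26) while that of *Rpl35a* moved to -1.19 (SE 0.30). Without LP female 1, LP female 2, or NP female 3 alone, *Iqcg* was at -1.68, -1.61, and -1.34. *Rpl35a* was then at -1.51, -1.50, and -1.16, so single libraries moved both genes. With all 3 left out, *Lrch3* went to 0.18 (SE 0.47) and *Fyttd1* to -0.06 (SE 0.18). NP female 2 was the library with the lowest *Iqcg* and *Rpl35a* of its group and the highest *Lrch3*, and without it the female difference of *Lrch3* was 0.99 (SE 0.39).

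LP females were also set against LP males, which compares sex together with collection time at the same maternal diet. edgeR called 780 genes higher and 803 lower in LP females out of 13228 (12%). Neither *Lrch3*, at a log2 fold change of 0.36 (SE 0.25, edgeR adjusted p = 0.35), nor *Fyttd1*, at -0.08 (SE 0.10, edgeR adjusted p = 0.63), was called. *Iqcg* was at -0.67 (SE 0.39) and *Rpl35a* at -0.27 (SE 0.22), given without a test because LP females entered the selection. Without LP male 3 these were -0.06 (SE 0.20) and 0.01 (SE 0.14), so the lower *Iqcg* of LP females here rested on that male.

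**Figure D4:**
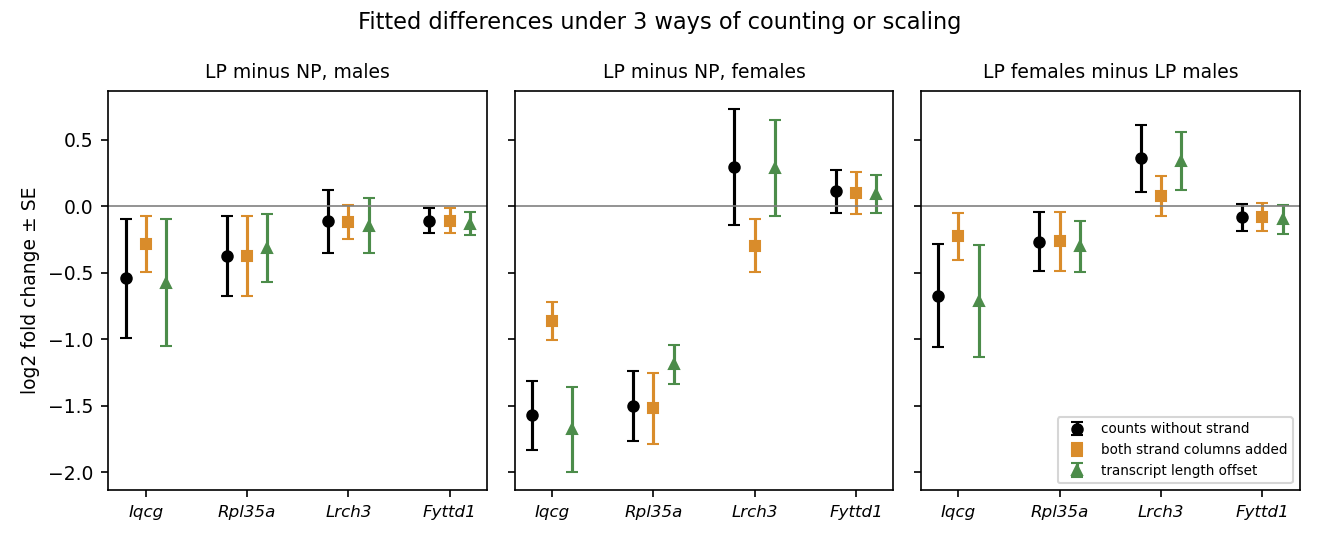
Log2 fold changes with standard errors on the y axis for the 4 genes in 3 contrasts, fitted to the unstranded counts (black), to both strand columns added (orange), and with an offset for transcript length (green). Adding the strand columns brings *Iqcg* in females from -1.57 to -0.86 and turns *Lrch3* there below 0.

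Over single mice, *Iqcg* and *Rpl35a* were high in the same libraries. Ordered by *Iqcg*, the 18 libraries left their widest gap on the log2 scale between 9.71 and 14.8 CPM, with 11 libraries below and 7 above. The 7 above were LP male 3, NP males 3, 4, and 5, and all 3 NP females. They held the 7 highest *Rpl35a* values as well, all at or above 71.0 CPM, while the other 11 libraries were at or below 56.5 CPM. The 7 thus comprised 1 of 5 LP males, 3 of 5 NP males, 0 of 5 LP females, and 3 of 3 NP females. The female part of this order follows from the selection of the pair. By group mean, the order of both genes was LP females, LP males, NP males, and NP females, and each group overlapped the next in that order.

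The separation was sharper when *Rpl35a* was read against the other ribosomal protein genes, a measure added after the values had been seen. For each library, the median deviation of 77 other ribosomal protein genes from their own means was taken off that of *Rpl35a*. The result ran from -0.76 to -0.15 (log2) in 11 libraries and from 0.47 to 0.75 in 7, with no library between, and the 7 were again those highest in *Iqcg*. That gap of 0.62 compares with 0.25 for the next widest. The place of the females in this split follows in part from the selection of the pair. By this measure LP male 3 was at 0.64, NP males 3 to 5 at 0.59, 0.64, and 0.59, and the NP females at 0.60, 0.47, and 0.75. *Rpl35a* covered a range of 1.51 on this scale, against a median range of 0.50 for the 77 genes, and 2 of them, *Rpl26* and *Rps2*, covered a wider one.

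**Figure D5:**
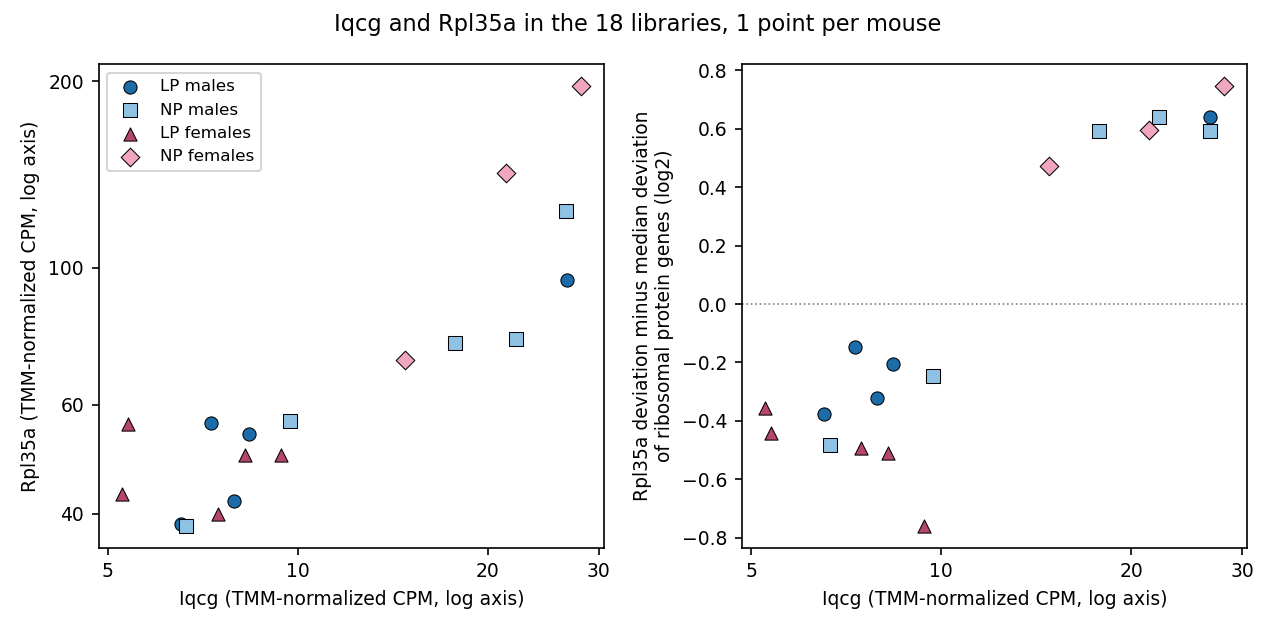
*Iqcg* in CPM on a log x axis against *Rpl35a* in CPM on a log y axis (left) and against *Rpl35a* after the median deviation of ribosomal protein genes was taken off (right, log2), 1 point per mouse. In both panels the same 7 mice lie at the upper right, and in the right panel no mouse falls between -0.15 and 0.47. The pair was selected on a difference among the females shown.

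Among the 12664 other genes that reached 10 counts in each library, the one whose log2 CPM followed *Iqcg* most closely over the 18 libraries was *Rpl35a* (Pearson's r = 0.89), and the reverse also held. Next to *Iqcg* came *Ak6*, an adenylate kinase (r = 0.80), *Hyls1*, a centriole protein (0.78), *Utp23*, a ribosomal RNA processing factor (0.77), and *Fam174c* (0.77). After *Iqcg*, those most like *Rpl35a* were *Fam174c* (r = 0.85), *Pdcd5* (0.83), *Morn2* (0.82), and *Atp5mg*, an ATP synthase subunit (0.81). In the 10 males *Rpl35a* ranked 2 for likeness to *Iqcg*, and in the 8 females 24. For likeness to *Rpl35a*, *Iqcg* ranked 1 in the males and 47 in the females. The pair was selected on a difference among the 8 females, so its likeness over the 18 libraries is in part given by that choice. *Lrch3* and *Fyttd1* were outside the 50 genes most like *Iqcg* or *Rpl35a*. These correlations describe libraries that fall into separate ranges of *Iqcg* and share a depth and RNA quality each, and no p is attached.

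Because the males fell into separate ranges of *Iqcg*, it was correlated only within the 6 lower ones. There its Pearson's r with *Rpl35a* was 0.73 (exact permutation p = 0.11) and Spearman's rho was 0.77 (exact permutation p = 0.10). With *Lrch3* r was -0.63 and with *Fyttd1* 0.03 (exact permutation p = 0.19 and 0.95). Over all 10 males, 3 pairs without *Iqcg* were tested. Among these, *Lrch3* and *Fyttd1* were correlated (Pearson's r = 0.74, permutation p = 0.014, adjusted over 3 pairs 0.043; Spearman's rho = 0.79, permutation p = 0.0092, adjusted 0.028), and without the 2 males farthest from the median of *Lrch3* r was 0.52 (permutation p = 0.19, n = 8), which no longer passed the threshold. Over the same males, *Fyttd1* ranked 988 of 12664 genes for likeness to *Lrch3*, and *Lrch3* ranked 236 for likeness to *Fyttd1*. Closer correlations thus existed for both genes, with more of them for *Lrch3*. *Rpl35a* gave r = -0.56 with *Lrch3* (permutation p = 0.090, adjusted 0.13; rho = -0.35, permutation p = 0.33) and 0.08 with *Fyttd1* (permutation p = 0.84; rho = 0.08, permutation p = 0.84).

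Transcript length ran through these libraries. The 100 genes most like *Rpl35a* had a median canonical transcript of 1491 bases, and its own has 669. For *Lrch3* these were 6786 and 5229 bases, and for *Fyttd1* 4318 and 4439. *Iqcg* differed, since the genes most like it had a median of 1910 bases and its own transcript has 5857. Over all genes that passed the count minimum the median was 3360 bases. A length index was set up after this had been seen, as the median deviation of the 2533 shortest transcripts (up to 1818 bases) minus that of the 2534 longest (5570 bases or more). It ran from -0.37 to 0.08 (log2) in LP males, from -0.26 to 0.49 in NP males, from -0.40 to 0.23 in LP females, and from -0.50 to 0.70 in NP females. Over 18 libraries its r was -0.90 with *Lrch3*, 0.69 with *Rpl35a*, 0.48 with *Iqcg*, and -0.39 with *Fyttd1*.

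The 7 libraries highest in *Iqcg* spanned the whole range of this index. NP female 2 had the lowest index of all 18 (-0.50) and NP female 3 the highest (0.70). NP males 3, 4, and 5 were at -0.19, -0.23, and 0.49, LP male 3 at 0.08, and NP female 1 at 0.40. With an offset for transcript length in the fit, the female difference was -1.68 (SE 0.32) for *Iqcg* and -1.19 (SE 0.15) for *Rpl35a*, and the male differences were -0.57 (SE 0.48) and -0.31 (SE 0.26). The part of transcript length in the differences beyond this was not tested.

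Other genes near the pair were read beside it. Within 250 kb of the *Iqcg* start or overlapping a member, 20 genes are annotated and 8 passed the count minimum, the members and *Rubcn*, *Lmln*, *Osbpl11*, and *Snx4*. *Lmln*, a metalloprotease gene that starts 6090 bases beyond the *Iqcg* start, ranged from 3.56 to 10.2 CPM and had a log2 fold change of -0.12 (SE 0.19) in males and -0.47 (SE 0.30) in females, or -0.22 (SE 0.32) without the 3 libraries that stood apart. *Rubcn*, a regulator of autophagy, *Osbpl11*, a lipid-binding protein gene, and *Snx4*, a sorting nexin gene, each varied by at most 1.57-fold from the lowest to the highest library. With edgeR, none of these 4 was called in any of the 3 contrasts.

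Of 11 listed genes of the nexin-dynein regulatory complex and its partners, 4 could be tested, and 0 were called between diets in either sex. In males they had a median log2 fold change of -0.20 against -0.0039 over all genes tested. *Drc3* was at -0.45 (SE 0.25), *Iqcd* at -0.30 (SE 0.23), *Gas8* at -0.09 (SE 0.15), and *Efcab2* at 0.04 (SE 0.10). In females the median was 0.01 against -0.01 over all genes, with *Drc3* at -0.40 (SE 0.32), *Gas8* at -0.07 (SE 0.24), *Efcab2* at 0.08 (SE 0.24), and *Iqcd* at 0.10 (SE 0.44). Without the 3 libraries that stood apart the female median was 0.14. Between LP females and LP males, *Iqcd* rose by 1.15 (SE 0.31, edgeR adjusted p = 0.024) and the other 3 were not called. In that contrast 12% of all genes tested were called.

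The remaining 7 genes of that list were near the floor. *Tcte1* had at most 1 count in a library, *Fbxl13* at most 3, *Drc7* at most 4, and *Ccdc153* at most 10, while *Drc1*, *Iqca1*, and *Ccdc65* reached 29, 21, and 36 counts in their highest library. *Foxj1*, the master regulator of motile cilia, stood between 0 and 0.604 CPM and the dynein gene *Dnai1* between 0 and 1.20 CPM, while *Dnah5*, *Rsph1*, and *Ccdc39* had medians of 1.69, 2.06, and 1.77 CPM. The 5 motile cilia markers together summed to 3.87 to 7.86 CPM in LP males, 3.63 to 5.81 in NP males, 6.02 to 9.90 in LP females, and 6.51 to 13.03 in NP females. The groups of neither sex separated on this sum.

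Most other cytosolic ribosomal protein genes shared the direction of *Rpl35a* in females, by median at a smaller size. Of 86 listed, 77 were tested in females, and 0 were called in either direction by edgeR; 73 lay below 0, with a median of -0.34 against -0.01 over all genes tested. Without the 3 libraries that stood apart, 74 lay below 0 and the median was -0.22 against -0.0075, with 0 called. *Rpl35a* ranked 2 from the lowest of 78, after *Rpl26* at -1.86. *Rpl35a* was selected on this contrast, so nothing is read from its size or rank there. In males 69 of 78 lay below 0, with a median of -0.06 against -0.0039 over all genes, 0 called, and *Rpl35a* ranked 4 from the lowest of 79. Between LP females and LP males, 0 of 77 were called, where 12% of all genes were, and the median was 0.25 against 0.03 over all genes. The median of these genes in single libraries ran from -0.36 to -0.05 (log2 deviation) in LP males, -0.39 to 0.35 in NP males, -0.22 to 0.39 in LP females, and -0.33 to 0.87 in NP females.

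Ribosomal protein genes have many near-identical copies, so the *Rpl35a* transcript was compared with all annotated ones. Stretches of at least 90% identity over at least 50% of its 669 bases were found in 3 other genes. *A330040F15Rik* on chromosome 19 (91.4% identical over 394 bases) had 28 to 108 counts per library. The pseudogenes *Gm10237* (95.2% over 336 bases) and *Gm27178* (341 aligned bases) had at most 1 and 0 counts. A read that fits a copy equally well is not counted on either gene, so the *Rpl35a* count may miss such reads. Reads mapping to several places made up 5.92% to 12.6% of a library, with the most in NP female 3. That library also had the most reads left uncounted (36.1%), and the part of this in its values was not tested.

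Of 15 listed messenger RNA export genes 13 were tested, and 0 were called between diets in either sex, with a median log2 fold change of -0.08 in males against -0.0039 over all genes and of -0.0050 in females against -0.01, or -0.14 without the 3 libraries that stood apart. Between LP females and LP males 1 of the 13 was called, beside 12% of all genes. It was *Thoc7*, a subunit of the THO complex, which fell by 1.13 (SE 0.16, edgeR adjusted p = 0.00076) and is named because it was the only call. *Lrch1*, a relative of *Lrch3*, and *Myo6*, an actin motor gene, were not called in any contrast. In males *Lrch1* was at 0.04 (SE 0.16) and *Myo6* at 0.06 (SE 0.10).

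Markers of other tissues that a kidney piece can carry were set beside the female values. The 3 fat genes summed to 0.0993 to 64.0 CPM in LP females and 1.37 to 53.6 CPM in NP females, and the 2 hemoglobin genes to 16.6 to 103 CPM and 50.0 to 154 CPM. By median, fat genes were at 0.483 CPM in LP and 8.21 CPM in NP females, hemoglobin genes at 24.1 and 96.3, and urothelial genes at 2.66 and 5.50. The medians of the adrenal genes (3.20 and 3.05 CPM) and the leukocyte gene (8.48 and 5.91 CPM) were lower in NP females. In males, the medians of fat (0.218 CPM in LP, 0.140 in NP), hemoglobin (34.4 and 26.1), and urothelial genes (11.9 and 6.86) were lower in NP. Urothelial genes summed to 1.68 to 9.64 and 2.69 to 21.0 CPM, the 2 adrenal genes to 2.50 to 3.67 and 0.425 to 3.64 CPM, and the leukocyte gene *Ptprc* stood at 5.62 to 9.43 and 4.68 to 10.8 CPM. These ranges overlapped between LP and NP females, and their part in the female values was not tested.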

How the data were processed

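The authors made poly(A)-selected, non-directional libraries, trimmed reads, aligned them to GRCm39 with STAR and GENCODE vM36, and deposited raw read counts per gene in 3 columns (without strand and for each strand). Each deposited file held 1 mouse. Members and gene lists were chosen with earlier results of these data known.

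Counts without strand were fitted with edgeR 4.0.16 (R 4.3.3; TMM; quasi-likelihood test; Benjamini-Hochberg adjustment over all genes reaching 10 counts in each library of the contrast), 1 contrast at a time. Scripts were tested on simulated data. A call needed both a 1.5-fold change and an adjusted p below 0.05. The SE is the log2 fold change over the root of edgeR's F. Shared reads were tested by exact permutation, and correlations by permutation (100000 resamples or all orders), with scipy 1.17.1. Correlations of 6 pairs were planned; the 3 with *Iqcg* were not pooled because its values fell into separate ranges. Genes named are the members, neighbors within 250 kb reaching 10 counts in each library, the 5 most like *Iqcg* and *Rpl35a*, copies of *Rpl35a* (BLAST 2.17.0), and list members called in males or in lists under 12 genes; others were named after their values were seen. One listed gene is not reported here. Between 28.6% and 36.1% of reads were counted on no single gene and left out.

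Alternatives were each strand column and their sum, DESeq2 1.42.0 (size factors, Wald test), 2 other filters, 1 model of the 4 groups, the replicate number as a block, and each library left out. An offset for transcript length was added after seeing the data. With group means taken off, same-numbered libraries correlated at -0.27 to 0.30 in males, -0.57 to -0.37 in females, and -0.23 to -0.0031 in LP mice. These values gave no sign that the numbers pair the mice, but groups this small cannot decide it.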

Additional observations from a re-analysis of the deposited data

Results flagged for a closer look

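The *Iqcg* level of LP male 3, 26.7 CPM, lay far from the other LP males, the nearest of which was at 8.37 CPM. On the log2 scale this gap was 0.82 of the range of the group, above the critical value of 0.71 for 5 mice. Of 15 sets of values tested in this way (the 4 genes and the shared reads in the 3 groups of 5), this was the 1 flagged, and chance flags about 1 in 20. *Rpl35a* was also highest in that mouse, at 95.6 CPM.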

How the results depend on the processing

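None of the 4 genes was called in males under any of 20 alternatives, and *Lrch3* and *Fyttd1* were called under none between LP females and LP males. Their directions held except that *Lrch3* in males was 0.016 without NP male 4. In females *Iqcg* was -0.86 with both strand columns added, -0.83 with the first alone, and -0.87 with the second alone. *Lrch3* was -0.36 there with the second column alone. Over males, r of *Rpl35a* and *Lrch3* was 0.10 without the 2 farthest libraries and -0.63 with diet means removed, r of *Rpl35a* and *Fyttd1* was -0.063 with diet means removed, and r of *Lrch3* and *Fyttd1* was 0.52 without the 2 farthest. *Rpl35a* ranked 2 for likeness to *Iqcg* in males and 24 in females. The causes were not tested.

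With 1 mouse left out at a time, the male difference ranged from -1.15 to -0.30 for *Iqcg*, -0.64 to -0.11 for *Rpl35a*, -0.27 to 0.016 for *Lrch3*, and -0.16 to -0.05 for *Fyttd1*. In females it ranged from -1.76 to -1.34, -1.79 to -1.16, 0.020 to 0.99, and 0.06 to 0.28. Between LP females and LP males it ranged from -0.82 to -0.06, -0.38 to 0.01, 0.22 to 0.50, and -0.15 to -0.03. The shared reads ranged from -0.22 to -0.07 and the sum from -0.51 to -0.15 (log2).

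Whether the replicate numbers pair the mice cannot be decided in groups this small. With the replicate block, *Iqcg* was -0.60 in males and *Rpl35a* -0.35, no member was called, and calls over all genes went from 5 to 2. In males 1 of 5 libraries correlated best with its own number. In females edgeR called 0 genes, but 3 without a filter, 2 without NP female 2, 2 with the 4 groups in 1 model, and 1 without the 3 libraries that stood apart. In males DESeq2 called 15 against 5, and leaving 1 mouse out gave 2 to 6.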
